A study of Homo sapiens with 6 samples.

Results

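The zinc finger genes of human chromosome 19 were described in neurons by the peaks of CTCF and of acetylated lysine 27 on histone H3 (H3K27ac) that lay on them. Members were the protein-coding genes of chromosome 19 whose symbol starts with ZNF followed by digits, with coordinates from RefSeq on GRCh38. They include 4 hyphenated symbols and 6 with a letter after the digits. Of the hyphenated ones, ZNF765-ZNF761 and ZNF816-ZNF321P have the same first listed start as ZNF765 and ZNF816 and were counted separately. ZNF470-DT, on the strand opposite to ZNF470, was counted by its symbol alone. Whether it encodes zinc fingers was not examined. The rule gave 250 genes of 1451 protein-coding genes on chromosome 19 and of 20033 on the 24 chromosomes used. A peak was counted for a gene when it shared at least 1 bp with the gene interval extended by 1 kb on each side. The other 1201 protein-coding genes of chromosome 19 served as the comparison, and 267 genes named by the same pattern on other chromosomes stood beside them.

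Most ZNF genes encode proteins with tandem C2H2 zinc fingers, each of which holds a zinc ion and contacts a few bases of DNA. Many of them also carry a KRAB domain, which binds the corepressor TRIM28. TRIM28 in turn brings in the methyltransferase SETDB1, and the H3K9me3 it places silences transposable elements. The genes arose by tandem duplication, and chromosome 19 carries several large clusters of them. CTCF is itself a zinc finger protein that binds insulators and the borders of chromatin loops, while H3K27ac marks active promoters and enhancers.

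The study made 6 sequencing libraries, 4 of them after chromatin immunoprecipitation, from neurons differentiated in BrainPhys medium. The neurons descended from neural progenitors of KOLF2.1J, a widely used human stem cell line of induced pluripotent origin. There were 2 libraries each for CTCF, H3K27ac and input chromatin, and the wider study was concerned with distal elements of MAPT. All libraries came from the same line and carried no treatment. For each antibody 1 peak list covered both libraries, so values of single libraries, their spread and the sequencing depth are not known here, and no test across samples could be made.

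The lists held 78694 H3K27ac and 43677 CTCF peaks, of which 3272 and 1801 lay on chromosome 19. H3K27ac peaks lay on 8 of 8 neuron markers (median highest fold 17.9), 6 of 6 neural progenitor markers (35.4) and 3 of 4 astrocyte markers (14.3). They lay on 2 of 4 pluripotency markers (6.23) and 2 of 4 oligodendrocyte markers (5.84). Over all protein-coding genes the share was 70.7% and the median highest fold 15.7, so counts among 4 genes say little. The median was higher for the progenitor than for the neuron markers. Single genes of these lists overlapped, from 9.81 at PAX6 among progenitor markers to 35.9 at MAP2 among neuron markers. RBFOX3, a neuron marker of 576227 bp, reached only 5.96. These counts were over whole genes. A listed start lay inside an H3K27ac peak in 4 of 8 neuron and 4 of 6 progenitor markers. For pluripotency, astrocyte and oligodendrocyte markers it did in 1, 1 and 0 of 4. What share of the cells were progenitors was not tested.

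Promoters were shown where the peak lists separated genes of closely similar sequence or marked the strongest members. RefSeq promoters on GRCh38.p14, from 250 bases before to 50 bases after a start, were given for 219 of the 250 members. ZNF91 and ZNF208 are shown because their promoters were 85.7% identical while ZNF91 carried an H3K27ac peak and ZNF208 had none. ZNF85 and ZNF257 form another such pair, with 82.1% identity. ZNF274 had the highest fold of all members, and ZNF568 had a CTCF peak and an H3K27ac peak over its promoter. The positions are chr19:23395422-23395721 (minus strand) for ZNF91, chr19:22010894-22011193 (minus strand) for ZNF208, chr19:20923001-20923300 (plus strand) for ZNF85, chr19:22052234-22052533 (plus strand) for ZNF257, chr19:58182811-58183110 (plus strand) for ZNF274 and chr19:36916082-36916381 (plus strand) for ZNF568. Each reads 5′ to 3′ along the gene, and capitals mark the ETS core CCGGAAG and the CCAAT box on either strand.
ZNF91: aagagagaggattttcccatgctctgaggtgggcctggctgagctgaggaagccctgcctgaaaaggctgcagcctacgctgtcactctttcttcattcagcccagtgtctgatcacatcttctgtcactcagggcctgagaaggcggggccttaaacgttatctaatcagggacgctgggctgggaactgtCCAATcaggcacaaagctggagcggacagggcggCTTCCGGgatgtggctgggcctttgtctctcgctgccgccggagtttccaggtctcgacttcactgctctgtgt
ZNF208: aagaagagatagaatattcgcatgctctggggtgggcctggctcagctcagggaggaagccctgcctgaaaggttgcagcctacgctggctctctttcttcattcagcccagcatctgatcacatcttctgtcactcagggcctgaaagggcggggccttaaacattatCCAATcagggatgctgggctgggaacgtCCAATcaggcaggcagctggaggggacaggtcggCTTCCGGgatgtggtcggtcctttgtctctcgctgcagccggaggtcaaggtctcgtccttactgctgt
ZNF85: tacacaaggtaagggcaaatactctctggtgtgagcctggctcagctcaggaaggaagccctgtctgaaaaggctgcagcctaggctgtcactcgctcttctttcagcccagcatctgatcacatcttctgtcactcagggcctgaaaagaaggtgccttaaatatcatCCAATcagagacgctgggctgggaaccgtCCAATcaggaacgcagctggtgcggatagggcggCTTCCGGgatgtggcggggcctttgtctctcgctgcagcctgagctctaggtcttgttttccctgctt
ZNF257: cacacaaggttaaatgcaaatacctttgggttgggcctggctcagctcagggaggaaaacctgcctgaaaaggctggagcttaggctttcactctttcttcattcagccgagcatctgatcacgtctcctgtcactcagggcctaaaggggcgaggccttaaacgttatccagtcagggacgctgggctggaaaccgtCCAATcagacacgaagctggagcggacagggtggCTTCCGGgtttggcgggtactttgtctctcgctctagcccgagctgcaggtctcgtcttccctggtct
ZNF274: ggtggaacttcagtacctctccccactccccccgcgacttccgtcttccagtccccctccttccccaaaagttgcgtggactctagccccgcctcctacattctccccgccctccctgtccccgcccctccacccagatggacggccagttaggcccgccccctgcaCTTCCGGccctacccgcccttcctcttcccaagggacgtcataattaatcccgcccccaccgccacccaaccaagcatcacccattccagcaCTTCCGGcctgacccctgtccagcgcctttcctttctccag
ZNF568: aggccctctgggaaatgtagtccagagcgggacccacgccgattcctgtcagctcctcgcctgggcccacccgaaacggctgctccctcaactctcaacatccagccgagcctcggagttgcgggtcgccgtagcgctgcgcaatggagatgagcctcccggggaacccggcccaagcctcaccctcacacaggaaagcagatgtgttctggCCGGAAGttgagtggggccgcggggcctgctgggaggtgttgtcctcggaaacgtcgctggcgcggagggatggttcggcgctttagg

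H3K27ac peaks lay on more of the ZNF genes than of their neighbours on the chromosome. At least 1 peak was found on 226 of 250 members, which is 90.4% (95% Wilson interval 86.1 to 93.5), against 773 of 1201 other genes or 64.4% (61.6 to 67.0). Over all protein-coding genes of chromosome 19 the share was 68.8%. The difference between members and other genes was 26.0 percentage points (21.0 to 30.2). ZNF genes on other chromosomes gave 91.8% (87.8 to 94.5), so the share was not particular to chromosome 19. These intervals cover counting error over genes only, and neighbouring genes can share a peak.

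The height of H3K27ac on these genes was close to that on other genes. Among members with a peak, the highest H3K27ac fold per gene had a median of 16.9 (14.5 to 19, order-statistic interval), an interquartile range of 9.24 to 26.0 and a full range of 3.47 to 68.9. Other genes of the chromosome had a median of 16.1 (14.9 to 17.6), and the intervals overlap. The fold is the authors' enrichment at the peak over a background that is not stated. Of the 226 members with a peak, 80 had 1 peak, 95 had 2 and 51 had 3 or more. Among other genes with a peak, 385 of 773 had 3 or more, and among ZNF genes of other chromosomes 84 of 245. Over all genes of each set, marked or not, the median was 2 peaks. The means were 2.03 in members, 2.24 in other genes and 2.90 in ZNF genes elsewhere. Members were thus marked often, and marked members had 3 or more peaks less often than marked genes of either set.

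CTCF showed the opposite order. A CTCF peak lay on 97 members, or 38.8% (33.0 to 45.0), against 652 other genes or 54.3% (51.5 to 57.1), and the share over all protein-coding genes of the chromosome was 51.6%. The difference was -15.5 percentage points (-22.0 to -8.70). ZNF genes on other chromosomes had CTCF at 58.4% (52.4 to 64.2). Their lengths reached higher, with an upper quartile of 53864 bp against 33610 bp in members, and these sets were not compared at equal length. Per 100 kb of extended gene interval, members had 1.79 CTCF peaks and ZNF genes elsewhere 2.12. All protein-coding genes had 2.17, and the other genes of chromosome 19 had 4.53. The highest CTCF signal value per gene, a score of the authors whose scale is not stated, had a median of 68.6 (57.9 to 86.4) in members and 164 (147 to 181) in other genes. Against the other genes of the chromosome, CTCF was therefore both less frequent on members and lower where it was listed.

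By combination, 94 members (37.6%) had both marks and 132 (52.8%) had H3K27ac without CTCF, a state found in 226 other genes (18.8%). A CTCF peak without H3K27ac was found on 3 members (1.2%) and 105 other genes (8.74%). No peak of either list lay on 21 members (8.4%), against 323 other genes (26.9%) and 23.7% of all protein-coding genes of the chromosome. Members with CTCF had a median highest H3K27ac fold of 18.7 (n = 94), and those without had 15.4 (n = 132), with interquartile ranges of 9.68 to 26.9 and 9.07 to 23.9 that largely overlap.

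**Figure D1:**
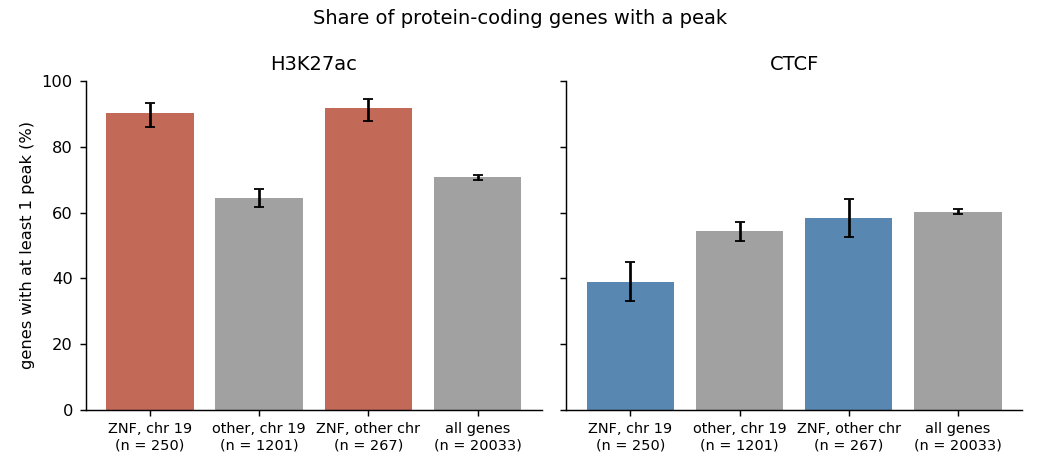
Share of genes with at least 1 peak (percent, bars start at 0) for H3K27ac (left) and CTCF (right) in the ZNF genes of chromosome 19, its other protein-coding genes, ZNF genes of other chromosomes and all protein-coding genes, with 95% Wilson intervals. H3K27ac stands at 90.4% in members against 64.4% in other genes, and CTCF at 38.8% against 54.3%.

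Gene length differed between the sets, with a median of 23254.5 bp in members and 12694 bp in other genes, and a longer interval meets more peaks. The genes were therefore compared within quartiles of length over the chromosome, bounded at 7477, 14335 and 28071 bp. For H3K27ac, members stood at 91.7%, 95.7%, 92.3% and 86.0% from the shortest to the longest quartile, and other genes at 50.4%, 60.4%, 66.1% and 85.9%. In the longest quartile, which held 100 members, the difference was 0.068 points (-8.86 to 7.30). The higher H3K27ac share was thus seen in genes of up to 28071 bp, and no difference was detectable above that length.

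For CTCF the members' share hardly moved with length, at 6 of 12 genes, 36.2%, 36.3% and 41.0%, while that of other genes was 38.2%, 47.8%, 57.9% and 79.8%. The difference turned from 11.8 points in the shortest quartile, which held only 12 members and whose interval of -13.3 to 36.9 includes 0, to -38.8 points (-49.0 to -27.7) in the longest. The gap in CTCF was thus widest among the longest genes.

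**Figure D2:**
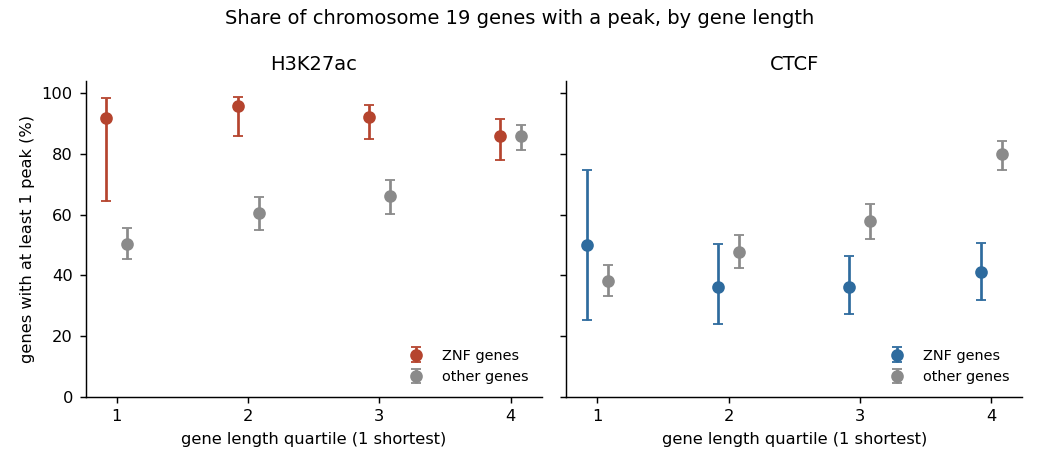
Share of genes with at least 1 peak (percent) by quartile of gene length on chromosome 19, for H3K27ac (left) and CTCF (right), with points for ZNF genes and other genes and 95% Wilson intervals. The H3K27ac shares meet in the longest quartile at 86.0% and 85.9%, where the CTCF shares are farthest apart at 41.0% and 79.8%.

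The strongest H3K27ac peaks of these genes mostly sat at gene starts. Of all 469 distinct H3K27ac peaks on members, 322 (68.7%) had their summit within 1 kb of a member's listed start. The other 147 (31.3%) lay farther away, with a median fold of 5.12 against 9.84 for the nearer ones. For other genes 980 of 2352 peaks (41.7%) lay within 1 kb. Of 219 members with a start in the promoter table, 148 (67.6%, 61.1 to 73.4) had a start inside an H3K27ac peak, against 336 of 966 other genes (34.8%) and 40.8% of all such genes of the chromosome. Over all chromosomes it was 46.6%. Within 500 bp of a start the counts were 201 members (91.8%) and 557 other genes (57.7%). The summit of the strongest H3K27ac peak lay within 500 bp of a start in 189 of 202 members (93.6%) and in 408 of 655 other genes (62.3%), at a median distance of 169 and 324 bp. ZNF genes of other chromosomes were close to members, with 66.5% having a start inside a peak and 89.4% within 500 bp. Their strongest summit lay within 500 bp of a start in 86.2%, at a median of 178 bp. The position at starts was thus not particular to chromosome 19. The last base of the gene lay in an H3K27ac peak in 5 members (2.28%) and in 55 other genes (5.69%). The first listed start was within 1 kb of the 5′ edge of the gene interval in 190 of the 219, so the table did not hold the outermost start of every member.

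Around the first listed start the mark had a dip just upstream. H3K27ac peaks covered 67.6% of members at 300 bp before the start, 43.8% at 100 bp before it, 62.6% at the start and 85.4% at 100 bp after it. Other genes showed the same shape at a lower level, with 23.6% at 100 bp before the start and a highest share of 49.2% at 200 bp after it. Separate peaks on both sides of the start were listed for 42 members (19.2%), with a median gap of 174.5 bp, and for 161 other genes (16.7%), with 235 bp. The downstream peak had the higher fold in 24 of the 42 members and in 73 of the 161 other genes.

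**Figure D3:**
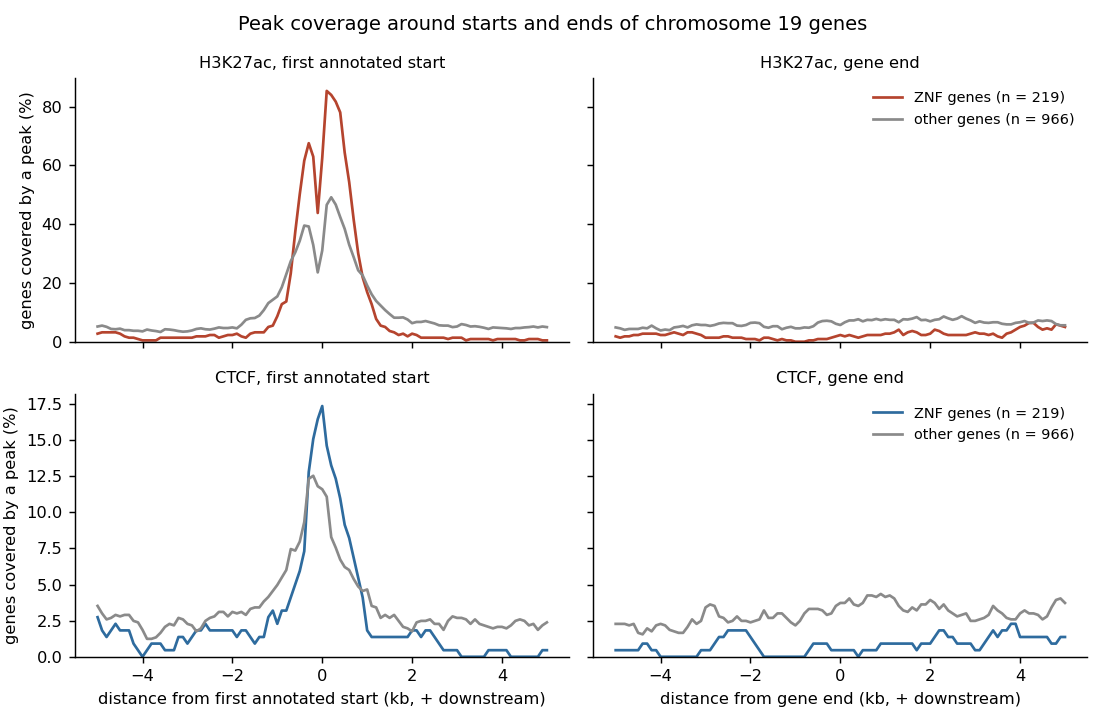
Share of genes covered by a peak (percent) against distance in kb from the first listed start (left) and from the gene end (right), positive downstream, for H3K27ac (top) and CTCF (bottom, on a shorter axis) in 219 ZNF genes and 966 other genes of chromosome 19. The members' H3K27ac curve falls to 43.8% at 100 bp upstream of the start and reaches 85.4% at 100 bp downstream, their CTCF curve is highest at the start, at 17.4%, and neither curve has a comparable peak at gene ends.

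CTCF in these genes also lay near starts more than in other genes. A start lay inside a CTCF peak in 41 members (18.7%, 14.1 to 24.4), against 138 other genes (14.3%, 12.2 to 16.6) and the intervals overlap. The share was 15.1% over all such genes of the chromosome and 19.9% over those of all chromosomes. The strongest CTCF summit of a gene, however, lay within 500 bp of a start in 45 of 86 members (52.3%, 41.9 to 62.6) and in 126 of 546 other genes (23.1%, 19.7 to 26.8). Against other genes of chromosome 19, the lower CTCF share of members thus did not extend to their starts. ZNF genes of other chromosomes had a start inside a CTCF peak in 63 of 218 (28.9%, 23.3 to 35.2). Members were lower than these, and the intervals overlap only slightly. The strongest CTCF summit of ZNF genes elsewhere lay within 500 bp of a start in 51 of 125 (40.8%, 32.6 to 49.6). This share too was above that of other genes of chromosome 19, and its interval overlaps that of members. Of the 129 distinct CTCF peaks on members, 76 (58.9%) had their summit within 1 kb of a member's start, and 71 of those 76 overlapped an H3K27ac peak. Of the 53 farther ones, 20 did (37.7%). Other genes had 296 of 1121 CTCF peaks near starts (26.4%), and overlap with H3K27ac was likewise higher there, at 80.1% against 29.3% of the farther peaks.

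The CTCF peaks near starts were the lower ones. Their median signal was 51.2, against 81.0 for the farther peaks, and other genes showed the same order at 68.5 and 101.9. Among the members' CTCF peaks 61 (47.3%) had the same width of 800 bp, against 378 of 1121 (33.7%) for other genes, and 12 of the 129 had a q above 0.05 in the authors' list. Peaks of any other width had medians of 148 in members and 164 in other genes, closer to each other than the medians of 61.3 and 89.9 over all widths. Without the 800 bp peaks, 56 members (22.4%) and 42.2% of other genes kept a CTCF peak.

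The promoters of these genes shared sequence features that the symbol rule did not use. The ETS core CCGGAAG, a letter match for the factors of the ETS family, was found on either strand in 99 of 219 member promoters, or 45.2% (38.8 to 51.8), against 12.8% of 966 other promoters on the chromosome and 14.2% of 15842 promoters of all protein-coding genes. CCAAT was found in 53.9% of members, against 37.4% and 36.4%. TATAAA was rare, at 2.28% against 8.07% and 9.75%. GGGCGG stood at 67.1%, 65.7% and 58.3%, and the median number of CpG dinucleotides in the 300 bases was 20 in members and 21 in other genes of the chromosome. Related promoters are not independent of each other, since the genes arose by duplication, although 217 of the 219 sequences were distinct. The repeated sequences were those that ZNF765-ZNF761 and ZNF816-ZNF321P share with ZNF765 and ZNF816.

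Further motifs were searched in the same way, on both strands and counted separately even where matches overlap. AAGATGG, the letters of the YY1 motif, was found in 7.76% of members, 7.35% of other promoters on the chromosome and 6.36% of all promoters. In the same order, the ZNF143-type motif was found in 3.65% (1.86 to 7.04), 1.35% and 1.53%. The NRF1-type motif was found in 12.3% (8.61 to 17.3), 10.5% and 8.58%, and the CGCG palindrome in 0.913%, 0.207% and 0.669%. A short form of the CTCF motif was in 4 member promoters (1.83%), in 4.45% of other promoters on the chromosome and in 4.13% of all promoters. Of the 48 member promoters under a CTCF peak 2 held it, against 16 of 157 such promoters of other genes.

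Few members were without the mark, so motif content could be compared only coarsely. The ETS core was in 44.9% of the 198 members with H3K27ac within 500 bp of the first listed start and in 10 of the 21 without (47.6%, 28.3 to 67.6), and the median CpG number was 20 in both. CCAAT stood at 55.1% and 42.9% (24.5 to 63.5), the NRF1-type motif at 11.6% and 4 of 21 (7.67 to 40.0), and AAGATGG at 8.59% and 0 of 21 (an upper bound of 15.5%). Members with the ETS core had a median highest fold of 16.4, and those without had 19.1, with interquartile ranges of 9.02 to 23.9 and 9.89 to 28.1. For GGGCGG the order was the other way, at 18.7 with and 13.7 without, with ranges of 10.2 to 26.2 and 7.31 to 25.7. Of 24 members with no H3K27ac peak anywhere on the gene, 17 had a listed promoter.

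For several of these 17, the most similar promoter belonged to a marked gene of the same cluster. Beside ZNF208 with ZNF91 (fold 36.4) and ZNF257 with ZNF85 (27.7), ZNF492 was 79.2% identical to ZNF431 (26.1) and ZNF723 was 75.4% identical to ZNF493 (15.6). In another cluster ZNF468 was 80.7% identical to ZNF701 (6.18) and ZNF525 was 78.3% identical to ZNF765 (6.70). For ZNF296, ZNF347, ZNF404 and ZNF541 the most similar promoter was that of an unmarked gene. Since 202 of the 219 members with a listed promoter carried H3K27ac, most promoters available for comparison were of marked genes. The median identity of the ZNF208 promoter to all member promoters was 47.7%. How the authors treated reads that map to more than 1 place is not given in the sources used here. Identity was measured over promoters only, and whether reads could be placed uniquely in these genes was not tested.

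The members fell into 20 groups when neighbours no more than 500 kb apart were joined, and 10 clusters of at least 5 genes held 236 of them. In 4 of those clusters, with 99 genes in all, every member had an H3K27ac peak. They were the clusters from ZNF653 to ZNF791 (25 genes), ZNF302 to ZNF792 (5), ZNF565 to ZNF573 (26) and ZNF264 to ZNF446 (43). The lowest shares among clusters of more than 5 genes were 28 of 37 (75.7%, 59.9 to 86.6) from ZNF101 to ZNF254 and 34 of 41 (82.9%, 68.7 to 91.5) from ZNF175 to ZNF331.

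Clusters ranked differently by the height of the mark. The median highest fold was 27.6 from ZNF628 to ZNF835 and 25.1 from ZNF414 to ZNF846, and it was lowest, at 9.93, from ZNF175 to ZNF331, where no gene exceeded 29.5. The cluster from ZNF101 to ZNF254 had a median of 21.5 over its marked genes although it had the lowest share of them among these larger clusters. CTCF ranged from 16 of 25 genes (64.0%, 44.5 to 79.8) from ZNF653 to ZNF791 down to 6 of 37 (16.2%, 7.65 to 31.1) from ZNF101 to ZNF254 and 0 of 5 from ZNF302 to ZNF792.

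The cluster from ZNF101 to ZNF254, at chr19:19668153-24129968 on GRCh38, had few CTCF peaks. It is the block nearest the centromere on the short arm, and its genes were long, with a median of 34630 bp. Its span of 4461.8 kb held 27 CTCF peaks, or 0.605 per 100 kb, and the highest signal on a member was 94.3. The cluster from ZNF302 to ZNF792 was lower, at 0.347 per 100 kb, that from ZNF565 to ZNF573 held 0.939, and the densest of the 10, from ZNF653 to ZNF791, held 3.56 with a highest signal of 345. H3K27ac peaks from ZNF101 to ZNF254 and from ZNF653 to ZNF791 numbered 1.95 and 5.22 per 100 kb.

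**Figure D4:**
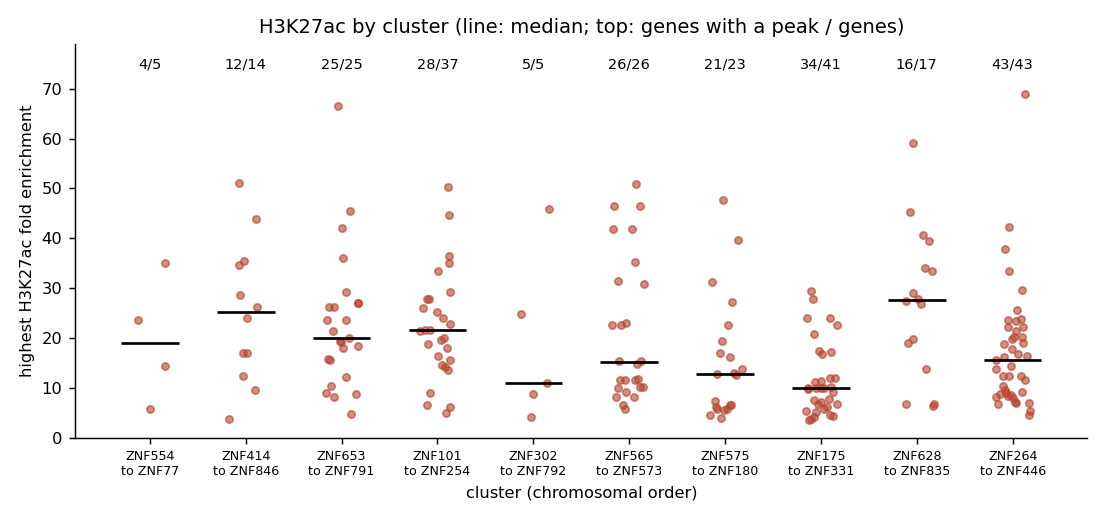
Highest H3K27ac fold enrichment (vertical axis, linear) of each ZNF gene with a peak, 1 point a gene, in the 10 clusters of at least 5 genes in chromosomal order; lines are medians, sideways scatter has no meaning, and the counts above give genes with a peak over all genes. Medians run from 9.93 (ZNF175 to ZNF331) to 27.6 (ZNF628 to ZNF835), and in 4 clusters every gene has a peak.

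Of the 24 genes without H3K27ac, 9 were neighbours from ZNF208 to ZNF728 (ZNF208, ZNF257, ZNF676, ZNF729, ZNF98, ZNF492, ZNF99, ZNF723 and ZNF728). Their stretch, chr19:21939815-23003176, spans 1063.4 kb and held no H3K27ac peak and 1 CTCF peak, of signal 49.6, which was on none of the 9 genes. The nearest H3K27ac peaks lay 87.8 kb below it and 71.6 kb above it. ZNF43 (fold 21.5) and ZNF100 (8.93) below the stretch and ZNF730 (23.9) above it were marked. Without these 9 genes the members' share with H3K27ac was 93.8%.

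Smaller runs lay in the cluster from ZNF175 to ZNF331. ZNF600, ZNF28 and ZNF468 were neighbours over 93.5 kb with no peak of either list, and ZNF534 and ZNF578 were neighbours with no H3K27ac. ZNF578 had CTCF peaks of up to 81.0. The other unmarked members were ZNF525, which had a CTCF peak of 58.9 whose summit lay 464 bp from a start, ZNF347, ZNF229, ZNF404, ZNF556, ZNF558, ZNF560, ZNF835, ZNF296 and ZNF541. ZNF541, a gene of the germ line that acts in meiosis, had only an 800 bp CTCF peak of 46.8 inside the gene.

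**Figure D5:**
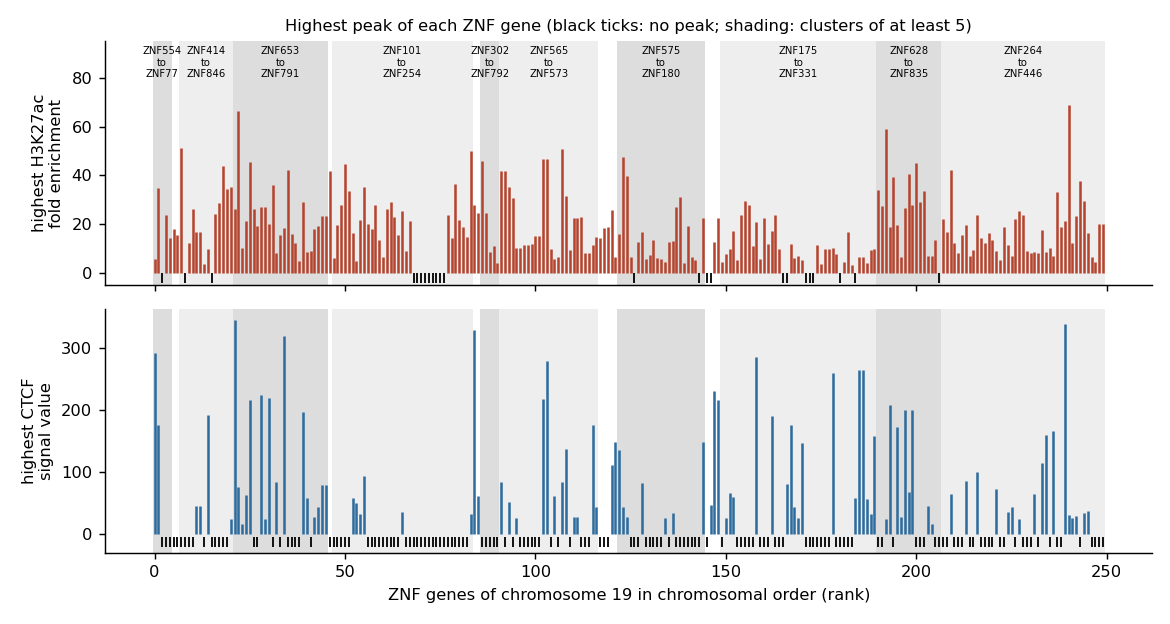
Highest H3K27ac fold enrichment (top) and highest CTCF signal value (bottom) of each of the 250 ZNF genes by rank along chromosome 19; black ticks below 0 mark genes with no peak, and shading in 2 greys marks the clusters of at least 5 genes. The run of 9 genes without H3K27ac lies in the cluster from ZNF101 to ZNF254, and the highest fold, 68.9, belongs to ZNF274.

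Among single genes, ZNF274 had the highest fold. Its product binds the 3′ ends of other ZNF genes and brings SETDB1 there. Its H3K27ac peak, at chr19:58182492-58184166 over the start, had a fold of 68.9, and CTCF peaks of 26.6, 28.8 and 31.0, all 800 bp wide, lay near the same start. ZNF627 followed with 66.6, also over its start, with a CTCF peak of 76.5 in the same place. ZNF414 had 51.1, with no CTCF, and ZNF383 had 50.9, with a CTCF peak of 84.2 that lay 9999 bp away. In all, 37 members reached a fold of 30 and 12 stayed under 5.

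Some of the highest values belonged to intervals shared with a neighbour. The peak of 59.2 counted for ZNF524 holds the start of FIZ1, and the strongest peak of ZNF69 (27) was that of ZNF700. ZNF254 had 7 peaks. Its highest, 50.2, lay 53580 bp before the listed start, near the 5′ edge of the gene, and another of 33.5 lay at the listed start. Over all members, the strongest H3K27ac peak held the start of another gene in 37 of 226 (16.4%), against 141 of 773 other genes (18.2%), and in 14 members the other gene was itself a member.

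The lowest folds of the 10 clusters lay between 3.47 and 6.36. From the distal short arm onward these were ZNF554 (5.77), ZNF177 (3.78), ZNF563 (4.73), ZNF90 (4.97), ZNF792 (4.19), ZNF585A (5.77), ZNF233 (3.92), ZNF845 (3.47), ZNF580 (6.36) and ZNF132 (4.50). The highest folds of the remaining clusters were 35.0 at ZNF555, 45.8 at ZNF302, 47.7 at ZNF576 and 29.5 at ZNF614. In each of these clusters the genes spread more widely than the cluster medians did, which ran from 9.93 to 27.6.

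Of 20 members listed for known roles, 16 had H3K27ac (median highest fold 23) and 9 had CTCF, beside 226 and 97 of all 250. ZNF91, which represses SVA elements, had an H3K27ac peak of 36.4 over its start and another of 10.9 upstream of it, and ZNF93, which represses older L1 elements, had 33.5. Neither had a CTCF peak, and ZNF91 at 90468 bp was among the longest members without CTCF, with ZNF420 (122467 bp, fold 9.93), ZNF676 and ZNF730. ZNF675 had 21.6, ZNF382 10.2, ZNF44 12.2 and ZNF667 29.1, all without CTCF. ZNF8 had 23.4 with a CTCF peak of 29.1, and ZNF507 had 24.5 with CTCF of up to 61.9 inside the gene. ZNF114 had 12.8 with CTCF of 232.

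The strongest CTCF peaks on members lay in different places. That of ZNF653, signal 345, lay just beyond the 3′ end of the gene and 23071 bp from its start. The peak of 339 on ZNF329 lay 4450 bp from the start, and that of 320 on ZNF20 lay 962 bp away. ZNF554 carried 292 with the summit 82 bp from its start, where H3K27ac was only 5.77, and ZNF616 carried 286 at 557 bp, inside an H3K27ac peak of 20.7. High CTCF was thus found both at starts and far from them.

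ZNF568, whose mouse counterpart represses a placental form of Igf2, and ZNF829 are transcribed away from each other, with starts 41 bp apart. They share an H3K27ac peak of 46.6 and a CTCF peak of 217, and ZNF568 has a further CTCF peak of 279 in its body, inside an H3K27ac peak of 9.55. ZNF180 had 22.6 with CTCF of 148 at its start. ZNF331, which is imprinted in some tissues, had 6 H3K27ac peaks of at most 9.77 along its 77035 bp and CTCF peaks of up to 159.

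ZNF536, a brain gene that acts in neuronal differentiation, was unlike the other members. At 487995 bp it was the longest, with 45 H3K27ac peaks (median fold 4.76, highest 27.9) and 10 CTCF peaks. The 3 H3K27ac peaks at its starts, with summits up to 2.43 kb from the first of them, had folds of 14, 14.1 and 27.9. A peak of 14.4, 4896 bp wide, lay 223 kb inside the gene. The 4 CTCF peaks above 200 lay between 425 and 458 kb inside. Leaving ZNF536 out moved the mean number of peaks per member from 2.03 to 1.86 for H3K27ac and from 0.564 to 0.526 for CTCF. The members next in number of H3K27ac peaks were ZNF787 with 9, and ZNF254 and ZNF69 with 7, while ZNF69 had 6 CTCF peaks and ZNF765-ZNF761 and ZNF875 had 3.

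The genes through which KRAB zinc finger proteins act carried H3K27ac as well. Of 22 genes listed for the TRIM28 pathway and the marks it leads to, 22 had H3K27ac, with a median highest fold of 31.5 (8.07 to 78.0), and 16 had CTCF, beside 70.7% and 60.3% of all protein-coding genes. TRIM28, the corepressor, had a fold of 37.0 and SETDB1, the methyltransferase, had 17.7. HDAC2, a histone deacetylase, was highest with 78.0, and UHRF1, which helps maintain DNA methylation, was lowest with 8.07. These levels describe the mark on the genes and not the amount of protein.

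Zinc finger genes of chromosome 19 outside the symbol rule were counted separately. Of 19 genes with the symbols ZFP, ZSCAN, ZIM, ZIK, ZBTB or PEG3, 14 had H3K27ac (73.7%) and 6 had CTCF. ZFP28 had the highest fold, 52.4. PEG3, ZIM2, ZIM3, ZSCAN5B and ZSCAN5C had no peak of either list, and the first of these is an imprinted gene whose neighbours ZIM2 and ZIM3 lie beside it.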

How the data were processed

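Chromatin immunoprecipitation for CTCF and H3K27ac, with input, was sequenced from 2 libraries each. The authors deposited 1 peak list per antibody. The submitters' processing notes name cutadapt 1.16 and the build hg38. The aligner, peak caller and handling of repeated sequence are not given in the sources used here. Per the labels the CTCF list is an optimal set by irreproducible discovery rate. In the deposited lists the CTCF signal value is a score of unknown scale, the H3K27ac value is a fold enrichment (a linear ratio), and a further column gives −log10 of a q-value. Depth is unknown. Columns of per-sample values left unused numbered 0.

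Peaks were joined to RefSeq genes by overlap with Python 3.11.15, pandas 2.3.3, NumPy 2.4.6 and SciPy 1.17.1, drawn with matplotlib 3.10.9, and the join was tested on simulated data. Signal values were compared within a list only. Shares carry 95% Wilson intervals and differences of shares carry intervals built from them. No test was run, since genes are not replicates. Named genes were the 6 highest members for each mark, the 4 with the most peaks of each, the 4 longest without each, the highest and lowest of each cluster for H3K27ac, and 20 with known roles. FIZ1, ZNF829, other neighbours, unmarked genes and those with similar promoters were named after their values were seen. The members and lists were chosen with earlier results of these data known. Alternatives varied the extension, the peak list, the overlap and the symbols. Protein features were not analysed here.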

Additional observations from a re-analysis of the deposited data

How the results depend on the processing

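Over 99 alternatives, 69 values moved by less than their counting interval, 29 moved further and 1 changed sign. The numbers of groups and clusters have no such interval, and are among the 69 because they stayed within a set ratio of the main value. No paired analysis was possible because each list covers both replicates together, and leaving out each replicate was not run for the same reason. The sign changed for the CTCF difference in the shortest length quartile, 11.8 points. In the longest it was -38.8, and with an extension of 5 kb it was -22.3. The H3K27ac difference was 41.2, 35.3 and 0.068 points in the shortest, the next and the longest quartile. With no extension, other genes had H3K27ac at 61.3% with a median of 13.8 and CTCF at 46.6%. With 5 kb they had 69.9% and 68.3% with a CTCF median of 192, and members had CTCF at 46.0%. With the 50% of peaks of highest signal, H3K27ac was 86.0% in members and 59.1% in others (median 17.6), and CTCF was 15.2% and 35.6% with medians of 199 and 235. Without CTCF peaks of 800 bp the shares were 22.4% and 42.2%, with medians of 159 and 208. Starts within 500 bp of H3K27ac were 91.8% and 57.7%. After the data had been seen, tissue-restricted families such as olfactory receptors were left out of the other genes (121 genes): others had 71.4% and 58.5%, and the H3K27ac difference was 19. Without the 9 genes from ZNF208 to ZNF728, also chosen after seeing the data, members had 93.8%. The lists limit every value: no replicate spread or depth is known, a gene without a peak is not shown to lack the mark, and whether reads of similar copies were placed uniquely was not tested.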
